A study of Mus musculus with 6 samples.

Results

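MHC class I molecules present peptides from inside the cell to CD8+ T cells and natural killer cells. Proteins are cut by the proteasome, in lymphoid and interferon-treated cells often in its immunoproteasome form, and the peptides are pumped into the endoplasmic reticulum by the transporter TAP. There tapasin holds the empty heavy chain, paired with its light chain beta-2 microglobulin, next to TAP until a peptide is bound. T cells carry class I on their surface like nearly all nucleated cells, and the factors NLRC5, RFX, NF-kappaB, IRF and STAT are known to act on the promoters of these genes.

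The genes described here were 10 named members of this pathway out of 55177 annotated genes with a transcript in the tables. They were the heavy chains H2-K1, H2-D1, H2-Q4 and H2-Q7, the light chain B2m, the transporter subunits Tap1 and Tap2, tapasin (Tapbp) and the immunoproteasome subunits Psmb8 and Psmb9. They were picked by name, not by their values here. They held 63 of the 141429 matched transcripts, and all 10 passed the filter on low counts. In the mouse build GRCm38, B2m lies on chromosome 2 (122147686 to 122153083) and the other members on chromosome 17. Tapbp, H2-K1, Psmb9, Tap1, Psmb8 and Tap2 follow each other between 33915899 and 34216321, and H2-D1, H2-Q4 and H2-Q7 between 35262730 and 35443773.

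RNA was measured in 6 libraries of CD4+ T cells from C57BL/6J mice, 3 of the wild-type genotype (WT) and 3 of the genotype Wtap KO. Wtap is a regulatory subunit of the complex that places N6-methyladenosine on mRNA. The protocol given for every library, WT included, has 4′ OH-tamoxifen at 1 µM for 24 h before activation, then 40 to 48 h of stimulation through CD3 (1 µg/mL antibody) and CD28 (2.5 µg/mL antibody). The medium was set for Th1 cells by 10 ng/mL of IL-12 and 10 µg/mL of an antibody to IL-4. Cells then grew in IL-2 (200 IU/mL) and were collected on day 4. The labels tie the tamoxifen step to the depletion of Wtap. They do not state which cells carried a Cre, which exons of Wtap were removed, the age of the mice, or how many animals stood behind the libraries, so p-values measure only the spread between these samples, which may be technical. Libraries held 32363139 to 44039467 estimated counts. Wtap itself was at 114, 106 and 94.3 CPM (counts scaled to the library's total) in WT 1, 2 and 3 and at 114, 120 and 119 CPM in Wtap KO 1, 2 and 3 (log2 fold change 0.16 ± 0.10 SE, edgeR adjusted p = 0.371), so total Wtap RNA does not check the labels. Library Wtap KO 3 stood apart from the other 5 in having the pattern of a male animal, with Xist at 3.81 CPM against 1980 to 4448 CPM in the others and Kdm5d at 63.3 CPM against 2.43 to 3.53 CPM.

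Of the class I genes, H2-Q7 rose in Wtap KO, and the other 9 did not pass the test. In edgeR's quasi-likelihood test 1 of the 10 members passed an adjusted p of 0.05, and it was higher. Of all 17610 genes tested, 9.23% passed and 5.75% passed as higher, so a share of 1 in 10 was near that of all genes. DESeq2 called 2 members, H2-Q7 and Tapbp, and 14.0% of all genes it tested. At an unadjusted p under 0.05 edgeR counted 3 members, against 26.3% of all genes. In 5 of the 10 members, and in 32.7% of all genes, no Wtap KO library lay within the WT range or the reverse. The median log2 fold change was 0.09 over the members and -0.00058 over all genes. In bulk RNA, fewer cells that express a gene and less of its RNA per cell cannot be told apart.

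**Figure D1:**
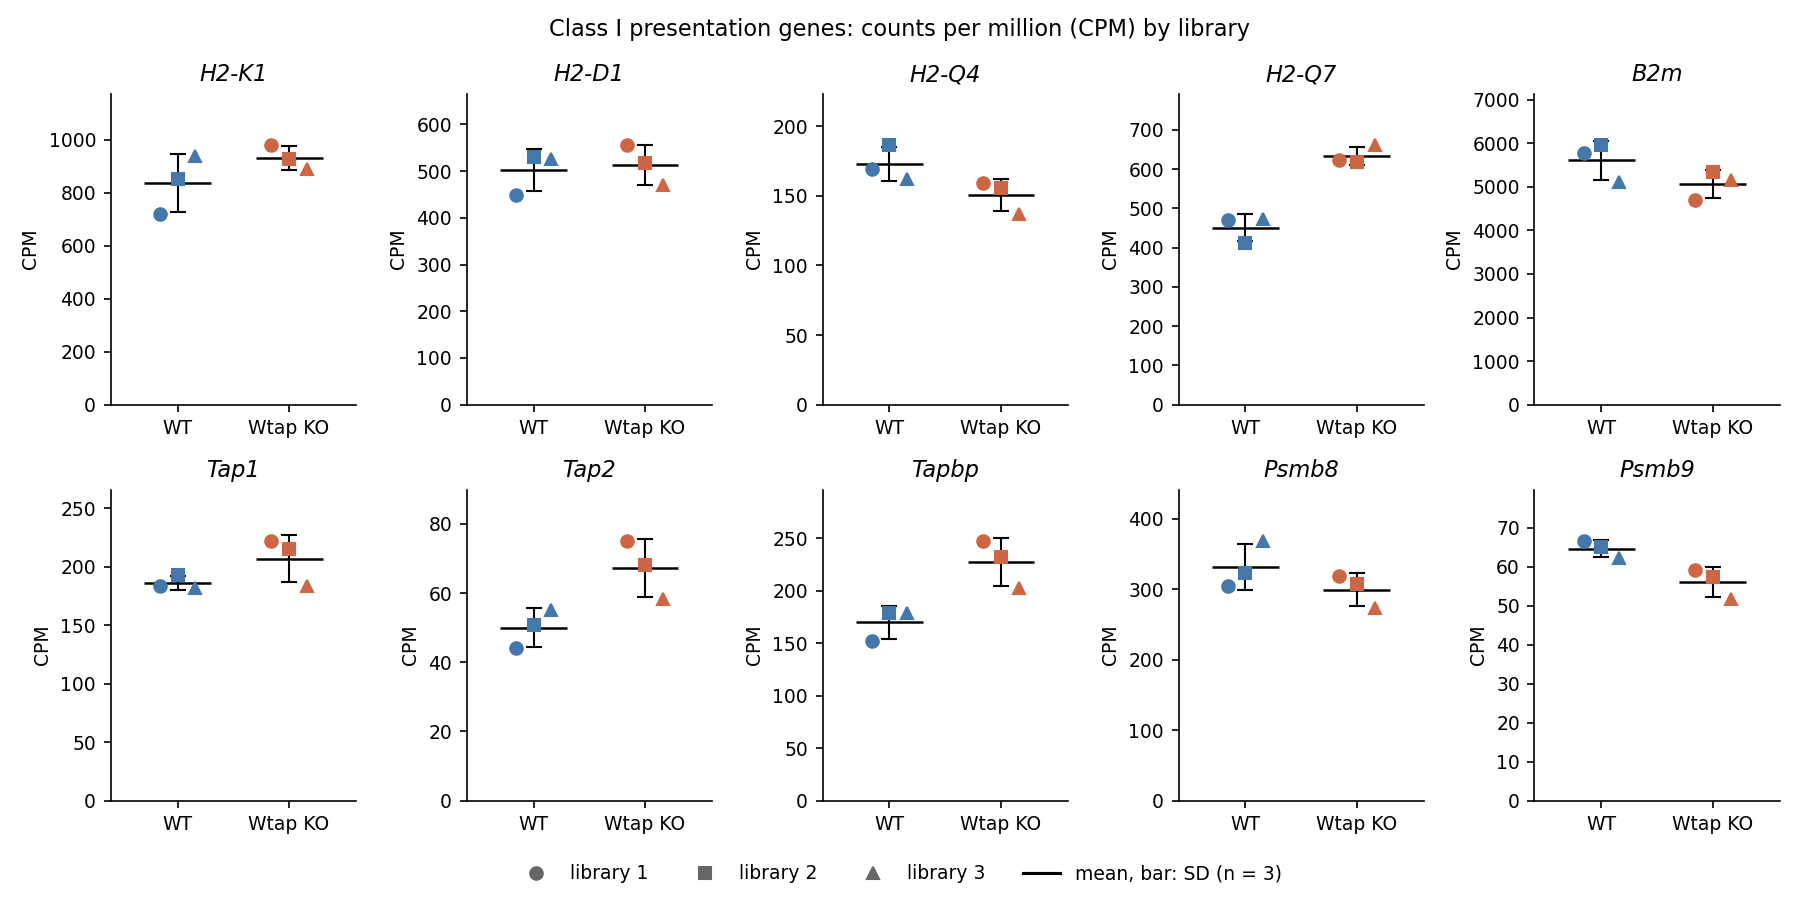
Level of each class I presentation gene (vertical axis, CPM from 0, a separate scale in each panel) in the 3 WT and 3 Wtap KO libraries; symbols mark the library number, horizontal lines the mean and bars the SD (n = 3). H2-Q7 lies at 412 to 472 CPM in WT and at 618 to 661 CPM in Wtap KO, whereas the libraries of H2-K1, H2-D1, B2m, Tap1 and Psmb8 overlap between the groups.

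Levels of different genes are compared per length, in TPM (counts divided by transcript length and scaled to the library), summed over the transcripts of a gene. B2m was the most abundant member, with 7486 ± 828 TPM in WT (SD, n = 3) and 6983 ± 401 TPM in Wtap KO. H2-K1 followed at 1458 ± 136 and 1629 ± 69.7 TPM, then Psmb8 at 374 ± 20.8 and 350 ± 26.6 TPM, and H2-D1 at 286 ± 25.8 and 300 ± 26.8 TPM. H2-Q7 came next, with 148 ± 6.28 TPM in WT and, in Wtap KO, 221 ± 11.3 TPM. H2-Q4 (81.6 to 99.5 TPM over the 6 libraries) and Tapbp (66.4 to 113 TPM) overlapped each other in level, as did Tap1 (64.8 to 86.3 TPM) and Psmb9 (53.5 to 66.0 TPM). Tap2 was lowest, at 22.2 to 39.9 TPM. The transporter subunits thus stood far below the light chain in every library. The places of H2-K1 and H2-D1 in this order rest largely on short transcripts. In WT, H2-K1-215 (457 bases) held a mean of 1086 TPM and H2-D1-201 (406 bases) one of 169 TPM. In CPM, which is not scaled by length, H2-D1 lay above Psmb8 in WT, at means of 502 and 332.

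The 4 heavy chains are paralogs whose proteins form the peptide groove. H2-K1 and H2-D1 encode the classical class I molecules of this strain, and H2-Q4 and H2-Q7 belong to the Qa group, whose products are known as nonclassical. Their promoters are close relatives too, which is why 3 of them are printed here beside that of B2m, as the bases from 180 before to 1 before the RefSeq start in GRCm38.p6, on the strand of the gene. Capitals mark matches on either strand to the short and the long form of an NF-kappaB site, the core of the interferon-stimulated response element, ATTGG (Y box) and TGACG (core of the cyclic AMP response element). Overlapping matches run together.
H2-K1 (chr17:34000348-34000527, minus strand): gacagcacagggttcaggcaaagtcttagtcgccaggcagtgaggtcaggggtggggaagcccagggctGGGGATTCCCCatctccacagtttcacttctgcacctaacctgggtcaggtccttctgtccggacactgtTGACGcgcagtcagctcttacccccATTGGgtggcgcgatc
H2-Q4 (chr17:35379437-35379616, plus strand): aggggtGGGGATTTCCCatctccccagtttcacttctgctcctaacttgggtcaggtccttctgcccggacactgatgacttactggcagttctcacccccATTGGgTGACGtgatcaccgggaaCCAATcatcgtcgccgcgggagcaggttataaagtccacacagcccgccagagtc
H2-Q7 (chr17:35438975-35439154, plus strand): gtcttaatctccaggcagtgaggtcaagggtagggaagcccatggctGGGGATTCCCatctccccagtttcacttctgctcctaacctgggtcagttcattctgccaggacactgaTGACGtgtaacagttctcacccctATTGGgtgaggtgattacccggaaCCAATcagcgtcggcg
B2m (chr2:122147507-122147686, plus strand): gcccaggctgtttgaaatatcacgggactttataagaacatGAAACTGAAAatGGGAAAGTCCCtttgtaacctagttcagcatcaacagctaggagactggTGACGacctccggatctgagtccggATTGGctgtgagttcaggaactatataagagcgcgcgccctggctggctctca

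RefSeq windows of 250 bases before to 50 bases after the start were found for 9 of the 10 members, all but Tap2. The short NF-kappaB form occurred in 5 of the 9 windows (the 4 heavy chains and B2m) and in 4.16% of all 32851 windows. ATTGG occurred in 8 of the 9 (not in Psmb8) and in 37.4% of all, and TGACG in 7 of the 9 (not in Tapbp or Psmb8) and in 20.8% of all. The single form of the interferon-stimulated response element core that was searched was in the B2m window only, against 3.44% of all windows. Variants of this element were not searched, so the heavy chain windows are not shown to lack it. The long NF-kappaB form was in B2m and H2-Q4, against 5.86% of all. TTCNNNGAA (a STAT site) was in Psmb8, against 8.30% of all. The windows of H2-Q4 and H2-Q7 were identical at 88.0% of their 259 aligned bases, and those of H2-K1 and H2-Q7 at 86.6% of 253. Tap1 and Psmb9 are divergent neighbours whose windows share 275 bases. Matches are descriptions of letters and say nothing of binding in these cells.

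Among the heavy chains, H2-Q7 rose and the classical genes did not pass the test. H2-Q7 (ENSMUSG00000060550, chromosome 17, 35439155 to 35443773, plus strand) was at 469, 412 and 472 CPM in WT 1, 2 and 3 and at 622, 618 and 661 CPM in Wtap KO 1, 2 and 3. Each Wtap KO library lay above each WT library. The fold was 1.404 (95% interval 1.202 to 1.64), with a log2 fold change of 0.49 ± 0.10 (SE) and an edgeR adjusted p of 0.0204. The rise kept its size but lost its call without WT 2 (edgeR adjusted p = 0.0899), Wtap KO 1 (0.0774), Wtap KO 2 (0.0918) or the male library Wtap KO 3 (0.0668). DESeq2 gave an adjusted p of 0.00148.

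H2-K1 (ENSMUSG00000061232) was at 721, 853 and 937 CPM in WT and 978, 925 and 888 CPM in Wtap KO. WT 1 was lowest, WT 3 lay among the Wtap KO libraries, and the fold of 1.11 (95% interval 0.925 to 1.34) did not pass (edgeR adjusted p = 0.456). H2-D1 (ENSMUSG00000073411) was at 450, 530 and 527 CPM in WT and 555, 517 and 470 CPM in Wtap KO. The groups overlapped throughout, at a fold of 1.02 (0.860 to 1.22; edgeR adjusted p = 0.888). Its direction turned without WT 1 (log2 fold change -0.04) or without Wtap KO 1 (-0.02). H2-Q4 (ENSMUSG00000035929) was at 170, 186 and 162 CPM in WT and 159, 155 and 137 CPM in Wtap KO. Its Wtap KO libraries all lay below its WT libraries, at a fold of 0.872 (0.740 to 1.03), but the difference did not pass (edgeR adjusted p = 0.276).

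These genes share sequence, and kallisto splits reads that fit several of them. Of the stretches of 31 bases in the transcripts of a member, 77.2% occurred in no other gene for H2-K1, 73.1% for H2-D1, 60.8% for H2-Q7 and 47.0% for H2-Q4. H2-Q7 shared 22.4% of its stretches with H2-Q10 and 15.5% with H2-Q5, and H2-Q4 shared 19.5% with H2-Q6. H2-Q8, H2-Q9 and H2-L are not in the annotation used, so stretches shared with them are not counted here. The values of single heavy chains are uncertain, and these shares do not measure by how much. The sum over the 32 heavy chain genes in the tables does not depend on the split among them. It was 2306, 2452 and 2564 CPM in WT and 2828, 2727 and 2618 CPM in Wtap KO. Every Wtap KO sum lay above every WT sum, yet the fold of 1.12 (95% interval 0.964 to 1.29) did not pass (log2 fold change 0.16 ± 0.09 SE, edgeR adjusted p = 0.325). Within that sum H2-Q7 made up 20.4%, 16.8% and 18.4% of the counts in WT and 22.01%, 22.6% and 25.2% in Wtap KO. H2-K1 made up 34.2% ± 2.68 and 34.1% ± 0.392, and H2-D1 20.6% ± 1.06 and 18.8% ± 0.856. H2-Q4 made up 7.09% ± 0.674 in WT and 5.52% ± 0.246 in Wtap KO.

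Of the 31 other heavy chain genes listed, 28 were in the tables and 13 were tested, of which edgeR called none and DESeq2 called 1. DESeq2 called 14.0% of all genes it tested. Unadjusted p-values in edgeR were under 0.05 for 5 of the 13, against 26.3% of all genes. The list had a median log2 fold change of 0.04. The genes nearest H2-Q7 in sequence had fold estimates on the same side. H2-Q5 shared 43.2% of its stretches of 31 bases with H2-Q7, so its value is not independent of that of H2-Q7. H2-Q5 was at 28.0 to 29.6 CPM in WT and 36.2 to 37.4 CPM in Wtap KO (fold 1.29, edgeR adjusted p = 0.0547). H2-Q10 was at 11.8 to 17.4 and 18.1 to 18.9 CPM (fold 1.33, edgeR adjusted p = 0.161), and H2-Q6 at 62.5 to 103 and 93.5 to 117 CPM (fold 1.33, edgeR adjusted p = 0.189). These 3 genes and H2-T23 were chosen for naming after their values were seen. H2-T23, which encodes the nonclassical molecule Qa-1, was at 124, 151 and 142 CPM in WT and 139, 135 and 115 CPM in Wtap KO and did not pass (edgeR adjusted p = 0.647). The class I-like molecules gave no call among 5 tested genes with edgeR and 1 with DESeq2 (lower). Of these 5 genes, 2 had an unadjusted p under 0.05 in edgeR, against 26.3% of all genes. Mr1, which presents vitamin metabolites to MAIT cells, was at 29.6, 22.5 and 20.1 CPM in WT and 17.4, 18.1 and 15.6 CPM in Wtap KO and did not pass (edgeR adjusted p = 0.0916). Adjusted p-values in edgeR were 0.243 for Cd1d1, 0.108 for Cd1d2, 0.725 for Fcgrt and 0.520 for Hfe.

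B2m (ENSMUSG00000060802), the light chain that pairs with class I heavy chains, did not pass the test. It was at 5765, 5951 and 5103 CPM in WT and 4702, 5336 and 5161 CPM in Wtap KO. The groups overlapped, and the fold was 0.904 (95% interval 0.768 to 1.06; edgeR adjusted p = 0.418). All of its stretches of 31 bases occurred in no other gene, so this value does not depend on paralogs. The ratio of H2-Q7 to B2m in TPM was 0.0193, 0.0175 and 0.0230 in WT and 0.0357, 0.0305 and 0.0290 in Wtap KO. The ratios did not overlap, at an exact two-sided permutation p of 0.10, the smallest that 3 against 3 libraries allow (0.171 adjusted over the 12 ratios computed). The ratio of H2-K1 to B2m was 0.198 ± 0.0404 and 0.234 ± 0.0233, with overlap (exact permutation p = 0.30). Most TPM of both heavy chains was given to retained-intron transcripts, so these ratios are not those of coding RNA alone. In WT, H2-K1-215 held a mean of 1086 of 1458 TPM and H2-Q7-206 one of 92.7 of 148 TPM.

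**Figure D2:**
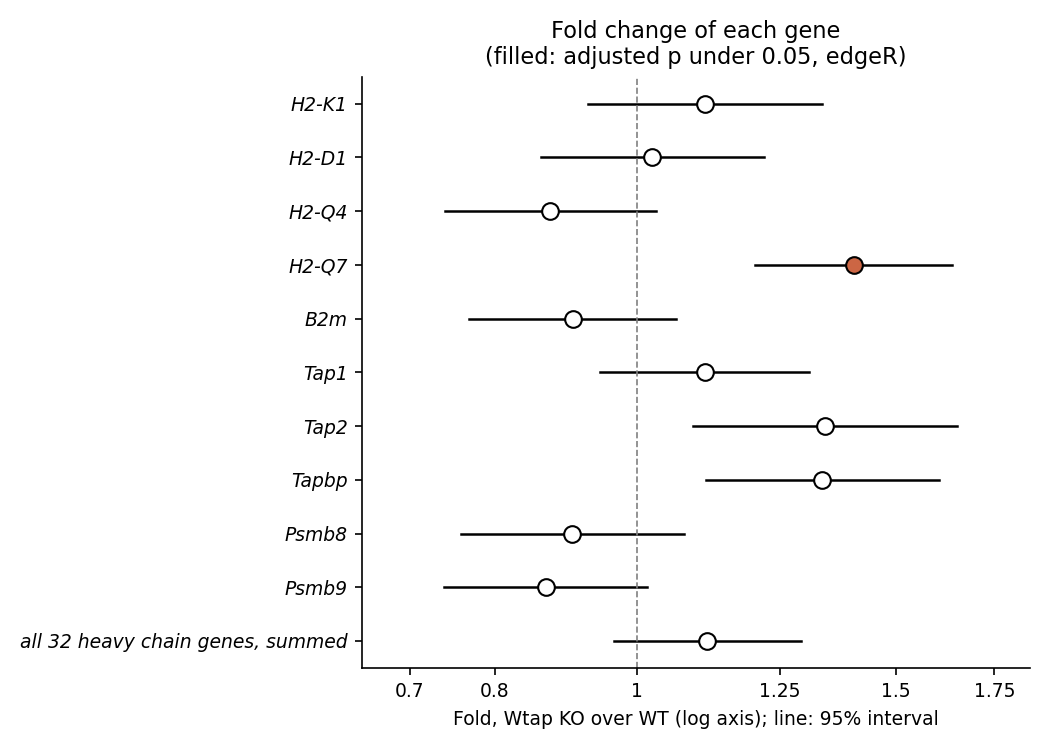
Fold of Wtap KO over WT for each gene and for the sum of the heavy chain genes (horizontal log axis; lines are 95% intervals from edgeR, 3 libraries a group, filled points have an adjusted p under 0.05). Only H2-Q7 is filled, at 1.404; the intervals of Tap2 and Tapbp also lie above 1, from 1.09 and 1.11, without passing after adjustment.

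The peptide-loading genes Tapbp and Tap2 were higher in each Wtap KO library than in each WT library, but they did not pass edgeR's test after adjustment. Tapbp (ENSMUSG00000024308), the tapasin that bridges TAP and the empty heavy chain, was at 152, 179 and 179 CPM in WT and 247, 232 and 202 CPM in Wtap KO. Wtap KO 3 was the lowest of its group. The fold was 1.34 (95% interval 1.11 to 1.604), with an edgeR adjusted p of 0.0570 and a DESeq2 adjusted p of 0.0284. Tap2 (ENSMUSG00000024339) was at 44.1, 50.9 and 55.1 CPM in WT and 74.9, 68.2 and 58.3 CPM in Wtap KO. Its fold was 1.34 (1.09 to 1.65; edgeR adjusted p = 0.0789). Tap1 (ENSMUSG00000037321), the partner of Tap2 in the transporter, was at 183, 193 and 182 CPM in WT and 222, 215 and 184 CPM in Wtap KO. Wtap KO 1 and Wtap KO 2 lay above all WT libraries and Wtap KO 3 among them, at a fold of 1.11 (0.943 to 1.31; edgeR adjusted p = 0.401). The ratio of Tapbp to Tap1 in TPM was 1.09 ± 0.0834 in WT and 1.33 ± 0.0562 in Wtap KO, without overlap (exact permutation p = 0.10). That of Tap1 to Tap2 was 2.68 ± 0.326 and 2.26 ± 0.183, with overlap (exact permutation p = 0.20). Tapbp shared 22.1% of its stretches of 31 bases with the antisense gene Gm19412. Tap2 shared 11.3% with Gm15821, which overlaps its exons by 533 bases on the opposite strand. Since the strand setting is not given in the sources used here, reads of such pairs cannot be told apart.

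The immunoproteasome subunits did not pass in either direction. Psmb8 (ENSMUSG00000024338), which takes the place of Psmb5 in the immunoproteasome, was at 304, 323 and 368 CPM in WT and 318, 307 and 274 CPM in Wtap KO. The groups overlapped, at a fold of 0.903 (95% interval 0.758 to 1.08; edgeR adjusted p = 0.451). Psmb9 (ENSMUSG00000096727), which takes the place of Psmb6, was at 66.5, 65.2 and 62.3 CPM in WT and 59.1, 57.4 and 51.6 CPM in Wtap KO. It was lower in each Wtap KO library than in each WT library, at a fold of 0.866 (0.739 to 1.02; edgeR adjusted p = 0.234). The ratio of Psmb9 to its divergent neighbour Tap1 in TPM was 0.987, 0.901 and 0.940 in WT and 0.688, 0.715 and 0.767 in Wtap KO, without overlap (exact permutation p = 0.10, adjusted 0.171 over 12 ratios). The exons of Tap1 and Psmb9 overlap by 212 bases on opposite strands, and those of Psmb8 overlap the antisense gene Gm20496 by 498 bases. Their values are therefore uncertain without the strand setting, by an amount these overlaps do not measure.

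Of the constitutive subunits that the immunosubunits replace, Psmb6 and Psmb7 fell and Psmb5 did not pass. Psmb6 fell from 24.9, 25.1 and 30.1 CPM to 18.2, 17.1 and 15.4 CPM (log2 fold change -0.66 ± 0.13 SE, edgeR adjusted p = 0.0202), and Psmb7 from 60.7, 60.0 and 60.5 CPM to 44.9, 47.8 and 43.2 CPM (-0.42 ± 0.10, edgeR adjusted p = 0.0333). Their groups did not overlap. Both lost the call in edgeR without WT 2 (adjusted p = 0.0589 and 0.102), Wtap KO 1 (0.0698 and 0.139), Wtap KO 2 (0.0993 and 0.123) or Wtap KO 3 (0.0706 and 0.0962). These were 2 of 10 tested genes in a list of other proteasome subunits and activators, with none called higher, against 3.49% of all genes called lower. The list had a median log2 fold change of -0.17. Psmb5 stood at 16.8 to 26.7 CPM in WT and 21.1 to 24.3 CPM in Wtap KO and did not pass (edgeR adjusted p = 0.952). Psmb5 and Psmb10 are named here as counterparts, with their values known. Psmb10, the third immunosubunit and the counterpart of Psmb7, was at 32.7 to 44.7 and 33.4 to 40.4 CPM (edgeR adjusted p = 0.716). Psmb9 to Psmb6 in TPM went from 1.745, 1.751 and 1.45 in WT to 2.16, 2.26 and 2.25 in Wtap KO, and Psmb10 to Psmb7 from 0.633, 0.820 and 0.806 to 1.03, 0.934 and 0.899, both without overlap (exact permutation p = 0.10 each). Psmb8 to Psmb5 was 13.8 ± 2.31 and 12.01 ± 0.697, with overlap (exact permutation p = 0.30).

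At the transcript level, 1 form of H2-Q4 that keeps an intron fell in Wtap KO, while its spliced partner took a larger share of the gene. Of the 63 member transcripts, 53 passed the filter. In edgeR 1 of them was lower and none was higher at an adjusted p of 0.05, against 0.720% of all 46935 transcripts called and 0.219% called as lower. At an unadjusted p under 0.05 there were 10, against 14.3% of all transcripts. DESeq2 called 4 higher and 1 lower, against 5.81% of all transcripts it tested. For the share of a transcript in its gene, tested with limma as a log-ratio to the gene's other transcripts, 2 of 52 member transcripts passed, against 0.424% of 39137, and 3 had an unadjusted p under 0.05, against 9.70%. Both belonged to H2-Q4, which has only these 2 transcripts, so they carry the same change of share with opposite signs.

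H2-Q4-202 is annotated as a retained-intron transcript. It keeps the intron of 187 bases between exon 2 and exon 3 of the coding transcript H2-Q4-201, at 35380174 to 35380360 on chromosome 17, plus strand, and its last exon runs 616 bases further, to 35385290. The intron is shown because it is the internal sequence that H2-Q4-202 has and H2-Q4-201 lacks, here with 20 bases of coding exon on each side, the intron in capitals.
H2-Q4 intron (chr17:35380154-35380380, plus strand, GRCm38): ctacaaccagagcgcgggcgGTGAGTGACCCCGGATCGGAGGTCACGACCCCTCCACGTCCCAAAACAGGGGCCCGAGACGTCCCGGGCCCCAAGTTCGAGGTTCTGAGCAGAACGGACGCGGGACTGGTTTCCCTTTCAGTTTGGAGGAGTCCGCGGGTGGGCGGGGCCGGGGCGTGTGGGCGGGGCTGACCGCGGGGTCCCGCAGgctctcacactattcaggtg

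H2-Q4-202 was at 20.3, 20.99 and 21.3 TPM in WT 1, 2 and 3 and at 6.31, 5.83 and 4.97 TPM in Wtap KO 1, 2 and 3. The groups lay far apart relative to their spread. The change was -1.92 ± 0.14 (SE) in log2 units, with an edgeR adjusted p of 0.0210. Of all counts of H2-Q4 it held 30.98% ± 3.04 in WT (SD, n = 3) and 9.31% ± 0.515 in Wtap KO. The log2 ratio to the rest of the gene fell by 2.13 ± 0.18 (SE; limma adjusted p = 0.0157). H2-Q4-201 was at 70.0, 78.5 and 60.3 TPM in WT and 87.9, 81.8 and 77.3 TPM in Wtap KO. WT 2 lay within the Wtap KO range, and the transcript itself did not pass in edgeR (log2 fold change 0.20 ± 0.12 SE, adjusted p = 0.537), but its share rose (limma adjusted p = 0.0141).

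With 1 library left out the call of H2-Q4-202 was lost in edgeR each time (adjusted p = 0.0545, 0.109 and 0.0617 with WT 1, 2 or 3 left out, and 0.156, 0.162 and 0.101 with Wtap KO 1, 2 or 3 left out). Its share kept the call in limma without WT 3 (0.0392) and lost it without WT 1 (0.0508) or WT 2 (0.0535), and also when Wtap KO 1, 2 or 3 was left out (0.0800, 0.0824 and 0.0719). DESeq2 gave an adjusted p of 4.18e-35 for the transcript. Summed over both transcripts in TPM, H2-Q4 was at 90.5 ± 8.98 in WT and 88.0 ± 5.96 in Wtap KO, with overlap, whereas its CPM values did not overlap. H2-Q4-202 is the longer transcript (2596 against 1793 bases), and CPM is not scaled by length.

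Which of its regions the change of H2-Q4-202 came from cannot be read from transcript totals. Of the 215 stretches of 31 bases that set it apart through the intron, 72 (33.5%) occurred in no other gene and 118 occurred also in Gm11131. Of the 616 stretches in the extended last exon, 412 (66.9%) occurred in no other gene and 204 occurred also in H2-Q6. Gm11131 is an antisense gene on the opposite strand whose exons overlap those of H2-Q4 by 496 bases. It was at 11.8, 16.1 and 20.4 CPM in WT and 31.2, 27.2 and 33.7 CPM in Wtap KO (log2 fold change 0.93 ± 0.20 SE, edgeR adjusted p = 0.0236) and so rose in the gene test. In the transcript test, which called H2-Q4-202, its 1 transcript did not pass (log2 fold change 0.94 ± 0.21 SE, edgeR adjusted p = 0.121). Its gene call was lost in edgeR without WT 2 (adjusted p = 0.0847), Wtap KO 1 (0.0951), Wtap KO 2 (0.0662) or Wtap KO 3 (0.0845). Reads of the shared stretches cannot be told apart without strand, and their part in the change was not tested.

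**Figure D3:**
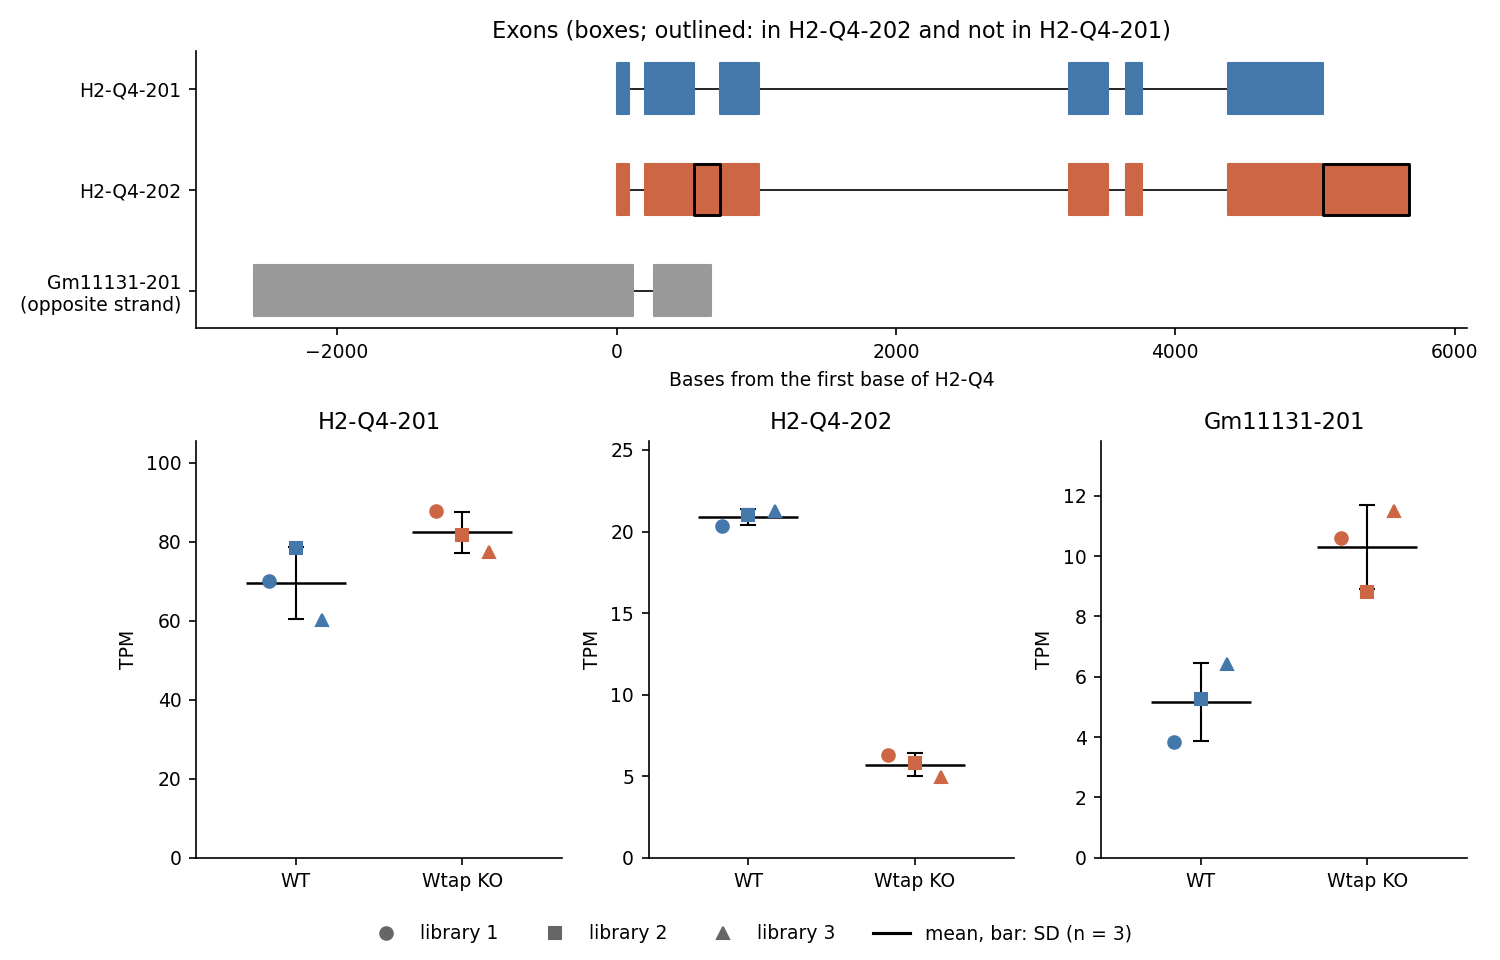
Top, exons of the H2-Q4 transcripts and of the antisense Gm11131-201 (horizontal axis, bases from the first base of H2-Q4; outlined boxes are in H2-Q4-202 alone of the 2 H2-Q4 transcripts). Bottom, TPM of each transcript from 0 in the 3 WT and 3 Wtap KO libraries with mean and SD; H2-Q4-202 lies at 20.3 to 21.3 TPM in WT and 4.97 to 6.31 TPM in Wtap KO.

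Of 25 retained-intron transcripts of the members tested, H2-Q4-202 was the only one called in edgeR, and DESeq2 also called H2-Q7-206 as higher. Among all 10684 retained-intron transcripts tested, 5 were called lower and 11 higher. In H2-Q7 the retained-intron transcript H2-Q7-206, of 4209 bases, held 86.7% ± 1.23 of the gene's counts in WT and 84.8% ± 4.41 in Wtap KO. It was at 98.7, 84.3 and 94.9 TPM in WT and 127, 121 and 149 TPM in Wtap KO (log2 fold change 0.46 ± 0.11 SE, edgeR adjusted p = 0.144, DESeq2 adjusted p = 0.0175), without overlap. The coding H2-Q7-204 was at 45.6, 48.0 and 45.0 TPM in WT and 77.5, 73.1 and 43.3 TPM in Wtap KO, where Wtap KO 3 lay below all WT libraries (edgeR adjusted p = 0.466). Of the scarcer coding forms, H2-Q7-201 was at 4.49, 2.79 and 2.60 TPM in WT and 10.8, 8.95 and 6.54 TPM in Wtap KO, without overlap (edgeR adjusted p = 0.115, DESeq2 0.00152). H2-Q7-203 was at 2.58, 4.39 and 5.69 TPM in WT and 15.8, 11.7 and 11.2 TPM in Wtap KO, without overlap (edgeR adjusted p = 0.0996, DESeq2 0.000332). Most counts of H2-Q7 as a gene were thus given to H2-Q7-206.

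No share of a transcript passed in the members other than H2-Q4, though smaller changes of share may have been missed. Tap2-202, a retained-intron transcript, held 91.2% ± 1.10 of the counts of Tap2 in WT and 90.8% ± 0.473 in Wtap KO. H2-K1-215, a retained-intron fragment of 457 bases, held 43.3% ± 1.98 and 41.3% ± 0.655 of the counts of H2-K1, and 998 to 1233 of the gene's 1318 to 1707 TPM. The TPM of H2-K1 is therefore mostly that of a short fragment. Among its coding transcripts, H2-K1-201 and H2-K1-205 held the largest shares of counts in WT, 20.2% and 20.5%. H2-K1-205 was at 108, 118 and 118 TPM in WT and 137, 134 and 115 TPM in Wtap KO, with overlap (edgeR adjusted p = 0.723). H2-K1-201 was at 98.2, 127 and 103 TPM in WT and 175, 142 and 152 TPM in Wtap KO, without overlap (log2 fold change 0.47 ± 0.13 SE, edgeR adjusted p = 0.171, DESeq2 adjusted p = 0.0270). H2-D1-201, of 406 bases, held 55.8% ± 8.08 and 51.7% ± 4.76 of the counts of H2-D1. Tapbp-206, coding, held 69.9% ± 2.75 and 69.7% ± 0.497 of Tapbp, and Tapbp-201 26.5% in both groups. Psmb8-203 held 62.0% ± 3.52 and 61.7% ± 2.20 of Psmb8, and Tap1-201 51.6% ± 3.29 and 50.0% ± 5.53 of Tap1. In Psmb9 the largest shares were those of Psmb9-204 (33.3% ± 4.53 and 32.7% ± 3.81) and the nonsense-mediated decay transcript Psmb9-207 (31.5% ± 3.42 and 31.2% ± 2.22). B2m has 1 transcript. The split of counts between transcripts is kallisto's estimate, and its error is not in the tables.

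Around these members, 6 regulators of class I genes rose. In a list of 26 regulators, all tested, edgeR called 6 higher and none lower, against 5.75% of all genes called higher. DESeq2 called 7 higher and none lower, against 14.0% of all genes called in either direction. At an unadjusted p under 0.05 edgeR counted 10 of the 26, against 26.3% of all genes. The groups did not overlap in 10, against 32.7% of all genes. The list was chosen with earlier results of these data known, so its counts are no independent test. The list had a median log2 fold change of 0.21. Stat2, a subunit of the interferon-activated factor ISGF3, rose from 49.2, 51.9 and 48.9 CPM to 118, 115 and 92.2 CPM (log2 fold change 1.12 ± 0.12 SE, edgeR adjusted p = 0.00196). Nlrc5, the transactivator of class I genes, rose from 126, 172 and 141 CPM to 283, 258 and 228 CPM (0.81 ± 0.14, adjusted p = 0.0116). Rfx5, a subunit of the RFX complex that binds class I promoters, rose from 37.6, 36.3 and 35.3 CPM to 50.8, 58.1 and 52.4 CPM (0.56 ± 0.10, adjusted p = 0.0154). Ifnar1, a chain of the type I interferon receptor, rose from 185, 179 and 169 CPM to 259, 275 and 287 CPM (0.62 ± 0.09, adjusted p = 0.00734). Of the 4 NF-kappaB genes in the list, Relb and Nfkb2 rose, and Rela and Nfkb1 did not pass. Relb was at 2.02, 5.38 and 5.89 CPM in WT and 13.8, 13.8 and 11.9 CPM in Wtap KO (1.58 ± 0.34, adjusted p = 0.0251). Nfkb2 was at 10.08, 16.9 and 22.96 CPM in WT and 37.4, 38.2 and 34.7 CPM in Wtap KO (1.14 ± 0.25, adjusted p = 0.0280). In all 6 genes every Wtap KO library lay above every WT library.

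Of these 6, Stat2 kept its call with any 1 library left out in edgeR. Ifnar1 lost it without Wtap KO 2 (adjusted p = 0.0524), and Nlrc5 without Wtap KO 1 (0.0597) or Wtap KO 2 (0.0570). Rfx5 lost it without WT 2 (0.0655), Wtap KO 1 (0.0574) or Wtap KO 2 (0.104). Relb and Nfkb2 lost it without WT 2 (0.0639 and 0.0921), Wtap KO 1 (0.101 and 0.106), Wtap KO 2 (0.102 and 0.109) or Wtap KO 3 (0.0695 and 0.0764). Other regulators did not pass in edgeR, among them Irf1 (118 to 143 and 133 to 160 CPM, adjusted p = 0.256), Rela (45.1 to 62.5 and 71.7 to 81.6 CPM, adjusted p = 0.0525) and Nfkb1 (209 to 274 and 218 to 223 CPM, adjusted p = 0.572). Irf1, Rela, Nfkb1 and Ifng were chosen here after their values were seen. Ifng, a cytokine known to raise class I, was below 1 CPM in every library.

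Of 10 genes for peptide loading in the endoplasmic reticulum, edgeR called 1 higher and none lower, against 5.75% of all genes called higher. DESeq2 called 2 higher and 1 lower, against 14.0% of all genes it tested. At an unadjusted p under 0.05 edgeR counted 3 of the 10, against 26.3% of all genes. Hspa5, the general chaperone BiP, rose from 162, 136 and 138 CPM to 237, 253 and 254 CPM (log2 fold change 0.77 ± 0.10 SE, edgeR adjusted p = 0.00484) and kept its call with any 1 library left out. The other 9 did not pass, and the list had a median log2 fold change of 0.12. Of 8 peptidases tested none passed in edgeR and DESeq2 called 2 lower, against 14.0% of all genes called by DESeq2. At an unadjusted p under 0.05 edgeR counted 3, against 26.3% of all genes, and the median log2 fold change was -0.18.

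**Figure D4:**
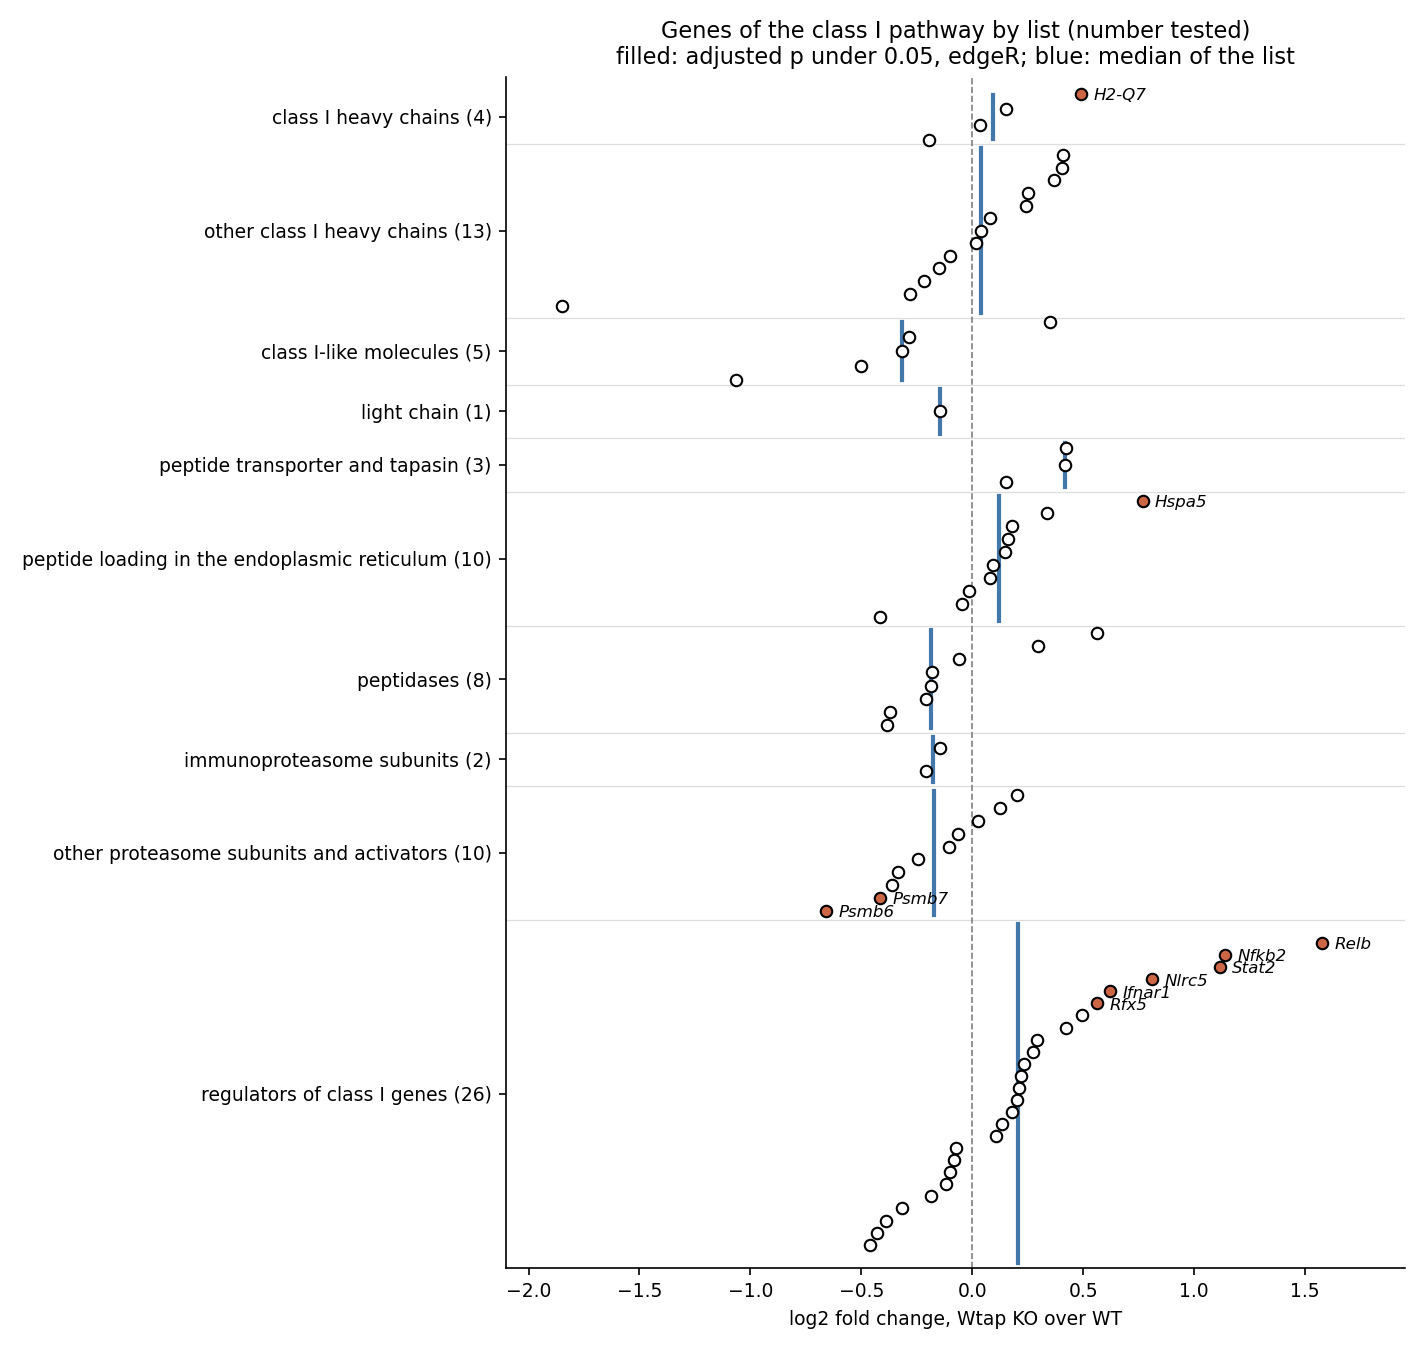
Log2 fold change, Wtap KO over WT (horizontal axis), of each tested gene of the class I pathway, grouped by list with the number tested; each point is a gene, filled and named where edgeR's adjusted p is under 0.05, and blue lines are list medians. The filled points to the right are H2-Q7, Hspa5 and 6 regulators, those to the left are Psmb6 and Psmb7.

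Some cell type markers differed between the same groups, where 5.75% of all genes were called higher and 3.49% lower. CD4+ T cell markers summed to 6121 to 6578 TPM in WT and 5082 to 5779 TPM in Wtap KO, with Cd3g and Cd4 lower among 11 tested (edgeR adjusted p = 0.0137 and 0.0244). The 12 dendritic cell markers summed to 12.4 to 39.1 TPM in WT and 47.1 to 63.7 TPM in Wtap KO. Of 9 tested, 3 were higher (Batf3, H2-Aa and Cd74), and Cd209a was at 0 in every library. A positive log2 fold change was found for 8 of the 9. H2-Ab1 went the other way, at 4.42 to 20.8 CPM in WT and 4.93 to 6.19 CPM in Wtap KO, and did not pass (edgeR adjusted p = 0.349). CD8 T cell markers summed to 7.18 to 7.79 and 11.4 to 13.9 TPM, with Cd8b1 higher. Of the 9 B cell markers, which summed to 406 to 573 and 331 to 531 TPM, 2 of 7 tested were higher (Blk and Ebf1), both below 1 CPM. Ighm, at 467 to 857 CPM, carried nearly all of that sum and did not pass (edgeR adjusted p = 0.599), while 6 of the 7 tested markers had a positive log2 fold change. Of 8 macrophage and monocyte markers, 1 of 3 tested was higher (Itgam), at sums of 3.74 to 6.04 and 4.02 to 7.56 TPM. No gene of the markers of NK cells (1.24 to 2.56 and 2.60 to 3.69 TPM), granulocytes (0.472 to 0.865 and 0.929 to 1.38 TPM, S100a9 at 0) or erythroid cells and platelets (4.13 to 13.2 and 6.17 to 15.9 TPM) passed in edgeR. At an unadjusted p under 0.05 there was 1 of 3, 0 of 1 and 0 of 4, against 26.3% of all genes. DESeq2 called 1 NK cell gene, against 14.0% of all genes it tested. Class II genes, which dendritic and B cells carry, gave 3 higher (H2-Aa, H2-DMb1 and Cd74) and 1 lower (H2-Ob) of 10 tested. H2-Aa, Cd74 and H2-Ab1 are in both this list and that of dendritic cells, so the lists are not independent. Each of these 11 marker and class II calls was lost in edgeR without Wtap KO 2, 10 also without Wtap KO 1, 9 without Wtap KO 3, 8 without WT 2, and 2 (Cd74 and Blk) without WT 1 or WT 3. The highest adjusted p with a library left out ran from 0.0529 for Ebf1 to 0.154 for Blk. The part of these markers and of the male library in the rise of H2-Q7 or of the regulators was not tested.

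Over the 6 libraries the mean of the 10 members, each as log2 CPM centred on its own mean, was -0.12, -0.02 and -0.01 in WT 1, 2 and 3 and 0.12, 0.08 and -0.05 in Wtap KO 1, 2 and 3. The male library Wtap KO 3 lay below all WT libraries but WT 1 in this mean. Among 8250 other genes with at least 10 CPM on average, those with the smallest root mean square difference from this profile were Hdhd2 (0.02 log2 units), Ikzf1 (0.03), Sept9 (0.03), Camk1d (0.03) and Tpt1-ps3 (0.03).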

How the data were processed

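Messenger RNA libraries were sequenced as pairs of 50 bp reads, per the labels' protocols, from 3 WT and 3 Wtap KO samples. Each library has a table with 142647 transcripts. Its estimated counts (expected counts) and TPM values, as deposited, were made by the authors with kallisto 0.44.0, and GRCm38 (mm10) and DESeq2 are also named, per the submitters' processing notes. The labels give neither the index release nor the strand setting.

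Transcripts were matched by identifier to GENCODE M21, and 1218 without a match were left out. Counts were summed per gene, rounded and tested with edgeR 4.0.16 in R 4.3.3 (quasi-likelihood, TMM, filterByExpr, Benjamini-Hochberg over all genes, threshold 0.05), with genotype as the only term. Transcripts were tested likewise, and transcript shares with limma 3.58.1, as the log-ratio to the gene's other transcripts with 0.5 counts added. Standard errors were derived from the fitted change and its F statistic. Alternatives were DESeq2 1.42.0, other size factors, filters, length and GC offsets, limma on log2(TPM + 1) or log2(TPM + 0.1), a replicate block and each library left out. The gene test was run once on counts simulated for 16867 genes. It recovered 16% of 50 genes changed 1.5-fold, 58.3% of 48 changed 2-fold and 74% of 50 changed 3-fold. Of its calls 15.4% were false, above the nominal level. The false share of 16.7% for transcripts, on 43240, rests on few calls and does not measure that rate. The changed genes were few beside those called in the data, so recovery in the reported fit may differ. The members, lists and tests were chosen with earlier results of these data known. Named genes are the members, the genes of each list past the threshold (all tested genes of lists of 6 or fewer) and the 5 genes nearest the members' mean profile. Other named genes of the lists were chosen with their values known. Promoters are RefSeq windows (GRCm38.p6).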

Additional observations from a re-analysis of the deposited data

How the results depend on the processing

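Against 1626 genes in the reported fit, DESeq2 called 2496, the replicate block 1061, limma on log2(TPM + 1) 868, on log2(TPM + 0.1) 828 and without a filter 302, and leaving out 1 library gave 361 to 2282. Of the genes called, 62.2% were higher in the reported fit, 52.6% with DESeq2 and 77.8% with unfiltered limma. Members called, 1 as reported, were 2 with DESeq2 and 2 with no filter, 0 with the replicate block and 0 to 1 with a library left out, and each edgeR fit with 0 had 3 members at an unadjusted p under 0.05. Against 338 transcripts, DESeq2 called 2936, a minimum of 50 counts 198, the replicate block 0 (5261 at an unadjusted p under 0.05) and leaving out 1 library 0 to 17. Against 166 changes of transcript share, a minimum share of 5% left 65, edgeR with a gene-total offset 82, the replicate block 0 (3005 at an unadjusted p under 0.05), and leaving out 1 library 85 to 207. The cause of these differences was not tested. The log2 fold change of H2-D1 ran from -0.042 to 0.096 with 1 library left out, below 0 without WT 1 or Wtap KO 1, and was -0.043 with a GC offset. With the replicate block H2-Q7 had an edgeR adjusted p of 0.0574 and H2-Q4-202 one of 0.3002. Same-numbered libraries correlated at -0.17, 0.06 and 0.17 in their deviations from the group means, so the numbers were not taken to pair the samples. On 43240 simulated transcripts, 16% of the 50 changed 3-fold were recovered. The limma test of shares was run on 35654 simulated transcripts. It recovered 0% of 50 changed 2-fold, 34% of 50 changed 4-fold and 88% of 100 changed 16-fold. Of its calls 8.61% were false, above the nominal level. Few changes were planted, which makes the adjusted threshold stricter, so these runs do not measure recovery in the reported fits. Smaller changes of single transcripts or of their shares may have been missed.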
